A study of Sus scrofa domesticus with 8 samples.

Results

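Of 10707 porcine genes that could be named on the arrays, 25 were near their starting level at 48 h of granulosa cell culture and low at both 96 h and 144 h. They were C7, NCKAP5, SRGN, LGALS9, VSIG4, EGR2, TYROBP, EFNB2, SLC7A7, ARRDC3, MPEG1, CXCL14, MFSD4B, F2RL1, LSR, TMEM206, CD55, AKR1CL1, NDNF, AMHR2, MXI1, APMAP, ID2, STXBP2 and CLEC7A. A gene was taken when its 48 h mean differed from its 0 h mean by less than 0.4 on the log2 scale and its 96 h and 144 h means both lay at least 1 below the 0 h mean. In addition, every 96 h and 144 h array had to lie below every 0 h and 48 h array. Because these values chose the genes, the step between 48 h and the later times is given below as a description with no test. LHCGR, the luteinizing hormone receptor gene, was left out of the choice.

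Granulosa cells form the inner layers of the ovarian follicle, where they feed the oocyte and make steroid hormones. The donors were 43 Landrace crossbred gilts, whose median age was 170 days at a weight of 98 kg, and all 4 groups share this source. Cells were taken before culture (0 h) or after 48 h, 96 h or 144 h at 37 °C in DMEM with 2% fetal bovine serum, with 2 arrays per time and 8 in all. The labels do not say if paired arrays stand for different animals, pools or dishes, so a p-value here reflects array-to-array spread alone, and that spread may be technical.

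Granulosa cells that leave the follicle and attach to plastic are known to lose the signals of the oocyte and of pituitary hormones and to move away from the follicular phenotype. Fresh follicular cells also carry leukocytes, above all macrophages, which attach to plastic too. The 25 genes have no single known function: they include genes best known from macrophages and other myeloid cells, complement and chemokine genes, cell surface receptors and ligands, regulators of transcription, and transport and enzyme genes. In RNA from a whole culture, fewer cells of a type and less RNA per cell cannot be told apart.

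Levels are log2 intensities, so a difference of 1 is a 2-fold difference in signal, and a level is compared only with the same gene on other arrays. The medians of all 27558 features lay between 4.52 and 4.63 on the 8 arrays. The lower quartile of an array lay between 3.13 and 3.25, and a level near or below it is not shown to be above background. Over all features, replicate 1 minus replicate 2 had an SD of 0.249 before culture, 0.265 at 48 h, 0.162 at 96 h and 0.382 at 144 h, so the 144 h arrays were the least alike. Of 8 granulosa cell markers, 4 were measured (AMH, HSD17B1, AMHR2 and FST). The log2 of their summed intensity was 12.03 and 12.17 at 0 h, 10.07 and 9.93 at 48 h, 6.89 and 6.86 at 96 h, and 7.31 and 7.88 at 144 h.

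A late step from a 48 h level within 0.4 of 0 h was rare among genes that ended low. Genes already lower at 48 h could also fall further later, as FST did (-3.98 at 96 h against 48 h). Both later means lay at least 1 below 0 h in 644 named genes. Of these, 480 (74.5%) were already at least 1 lower at 48 h, a further 133 lay between 0.4 and 1 lower, and 6 were at least 0.4 higher at 48 h. The remaining 25 are the genes described here, or 3.88% of the 644, and for none of them did the array condition remove a candidate. Over the 25 genes, 19 had a 48 h mean slightly below and 6 slightly above the 0 h mean. Of all named genes, 54.4% had a lower mean at 48 h than at 0 h. The average of the 96 h and 144 h differences from 0 h ran from -3.23 for C7 to -1.04 for CLEC7A, with a median of -1.40, as measured. Levels below the lower quartile make such differences lower bounds, so their rank is not measured. Each of the 25 was measured by 1 feature of the array.

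**Figure D1:**
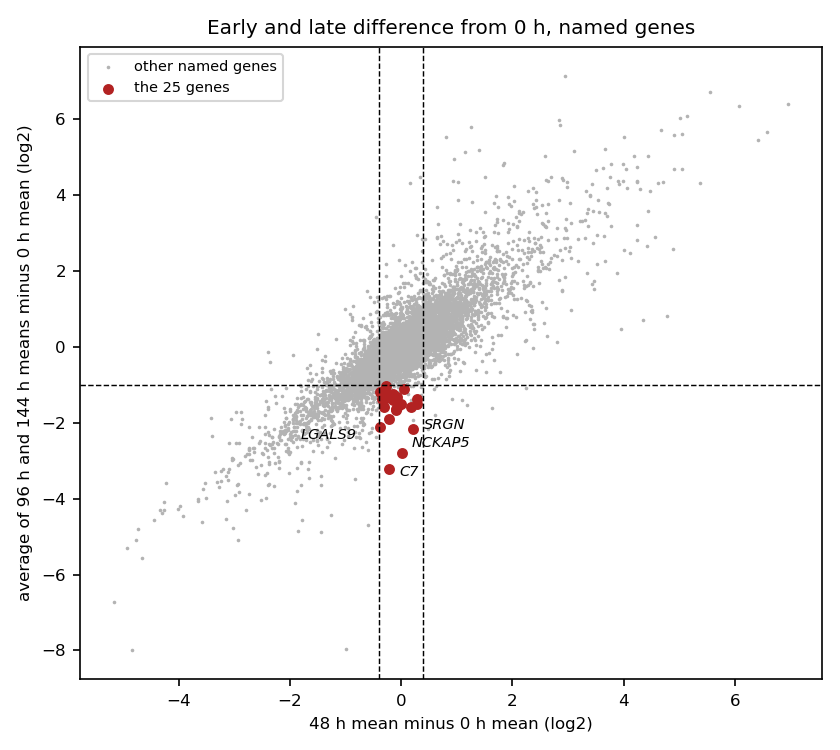
Each point is a named gene: the horizontal axis is its 48 h mean minus its 0 h mean and the vertical axis the average of its 96 h and 144 h means minus its 0 h mean, both log2. The dashed lines mark 0.4 and 1, the thresholds of the choice, and the 25 genes (red) hang below the main diagonal cloud, with C7 at -3.23. Grey points in the same box missed the threshold at 96 h or at 144 h.

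**Figure D2:**
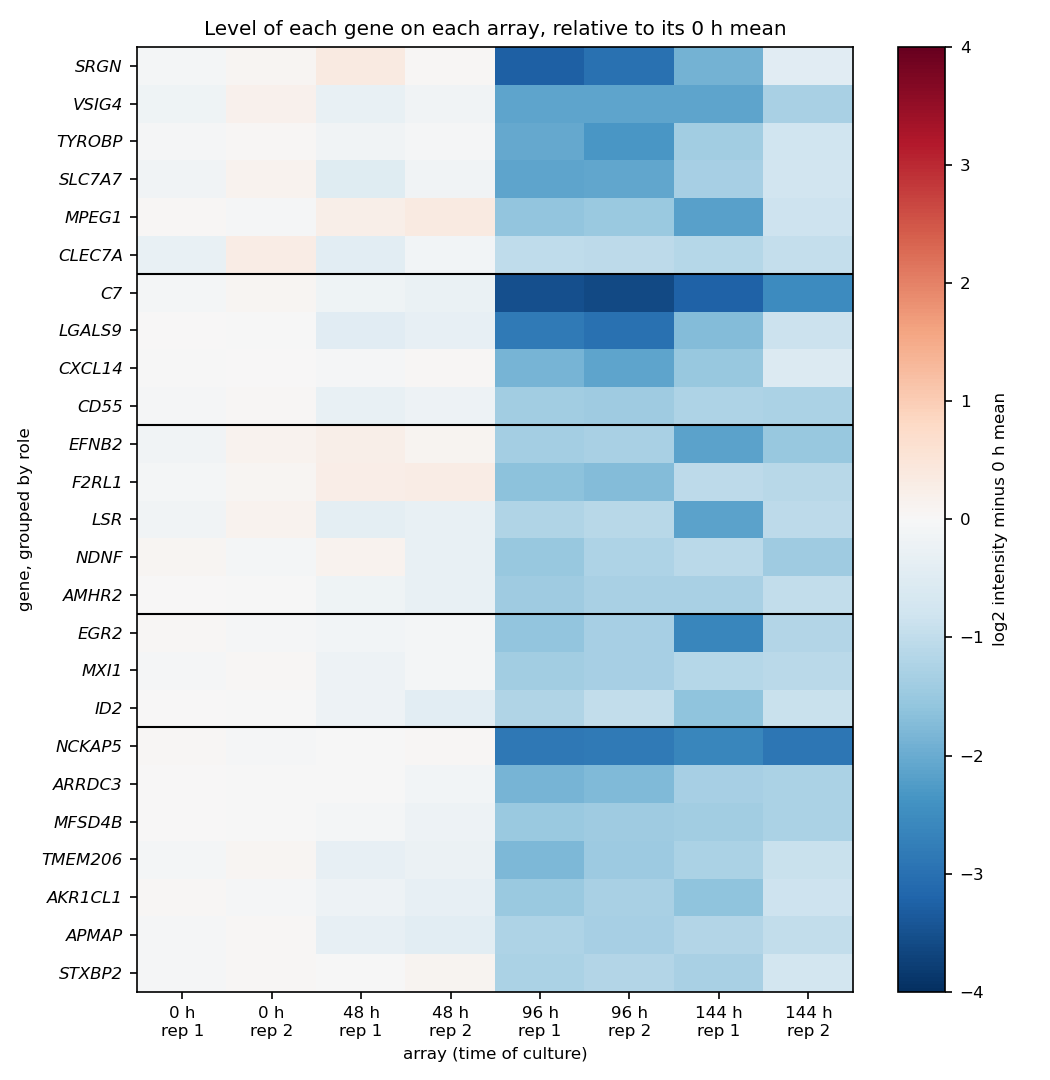
Log2 intensity of the 25 genes (rows, grouped by role) on the 8 arrays (columns, by time and replicate), each minus the mean of the gene's 0 h arrays. Columns at 0 h and 48 h are near 0, and all columns at 96 h and 144 h are blue, that is lower, with 144 h replicate 2 paler than replicate 1 for 21 of 25 genes.

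The first group, 6 genes, is best known from macrophages and other myeloid leukocytes. TYROBP encodes the adaptor DAP12, through which activating receptors of myeloid and natural killer cells signal. It read 6.44 and 6.54 at 0 h, 6.36 and 6.44 at 48 h, 4.44 and 4.16 at 96 h, and 5.09 and 5.70 at 144 h. The 0 h and 48 h arrays overlapped, both 96 h arrays were lowest, and both 144 h arrays lay between. SRGN encodes serglycin, the proteoglycan of secretory granules in blood cells. Its levels were 6.18 and 6.33 at 0 h, 6.63 and 6.31 at 48 h, 2.97 and 3.26 at 96 h, and 4.35 and 5.80 at 144 h. Its 96 h arrays lay near the lower quartile, and the 144 h arrays lay above them but far from each other.

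VSIG4, a complement receptor of tissue macrophages, was dim throughout at 4.31 and 4.69 at 0 h, 4.21 and 4.36 at 48 h, 2.39 and 2.38 at 96 h, and 2.40 and 3.20 at 144 h, and 3 of its 4 later arrays were below the lower quartile. MPEG1, which encodes the pore-forming protein perforin-2 of macrophages, gave 5.41 and 5.30 at 0 h, 5.58 and 5.70 at 48 h, 3.77 and 3.88 at 96 h, and 3.19 and 4.54 at 144 h. Its 144 h replicates lay on either side of the 96 h arrays. SLC7A7 encodes the light subunit of a cationic amino acid transporter and is expressed in macrophages as well as in epithelia. Its feature read 5.16 and 5.43 at 0 h, 4.80 and 5.16 at 48 h, 3.18 and 3.23 at 96 h, and 3.96 and 4.52 at 144 h, and the distance between its lowest early and highest later array, 0.28, was the smallest of the 25 genes. CLEC7A, the gene of the beta-glucan receptor dectin-1, had 3.25 and 3.86 at 0 h, 3.13 and 3.43 at 48 h, 2.55 and 2.50 at 96 h, and 2.42 and 2.60 at 144 h. All 4 later arrays and 1 of the 48 h arrays were below the lower quartile, so the size of its difference is not measured well.

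Other markers of leukocytes were set beside these genes. Of 8 macrophage and leukocyte markers listed, 5 were measured: TYROBP, PTPRC, CD14, AIF1 and CD3E. Without TYROBP, the log2 of the summed intensity of the other 4 lay between 5.77 and 6.19 on all 8 arrays, so this sum did not separate the times. PTPRC, the pan-leukocyte gene CD45, was lower at 96 h than at 48 h by limma's moderated test (-0.59 ± 0.19, SE, adjusted p = 0.0488), and so was AIF1 (-0.66 ± 0.11, adjusted p = 0.00252), whose levels never passed the lower quartile. In that comparison 16% of all features were lower and 13.4% higher. CD14 had means of 4.17 before culture, 4.59 at 48 h, 4.93 at 96 h and 4.70 at 144 h, and its difference between 96 h and 48 h was not called (adjusted p = 0.156).

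A wider list of 30 myeloid genes was drawn up after the 25 genes had been seen, so it is described without a test. Of its 17 measured genes, 13 had a lower mean at 96 h than at 48 h and 13 at 144 h than at 48 h, against 48.3% and 49.2% of all named genes. Their median differences from 0 h were -0.18 at 48 h, -0.76 at 96 h and -0.85 at 144 h, where those of all named genes were -0.04, -0.01 and -0.03. C1QB and C1QC, which encode chains of complement C1q made by macrophages, FCER1G, which encodes an Fc receptor chain, and the leukocyte membrane gene CD53 were partly lower at 48 h already. C1QB, for example, read 7.32 and 7.35 at 0 h, 6.31 and 6.22 at 48 h, 4.64 and 4.57 at 96 h, and 4.17 and 5.77 at 144 h. FCER1G read 6.64 and 6.82 at 0 h, 5.89 and 6.16 at 48 h, 3.55 and 3.97 at 96 h, and 3.69 and 5.16 at 144 h. LYZ, the lysozyme gene, ran the other way, at 5.15 and 5.39 at 0 h, 6.46 and 6.40 at 48 h, 7.10 and 6.94 at 96 h, and 6.70 and 6.24 at 144 h. TLR4 was also higher than at 0 h, by 0.60 at 48 h, 1.00 at 96 h and 0.79 at 144 h. The part of leukocyte content in the levels of the 6 genes was not tested.

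**Figure D3:**
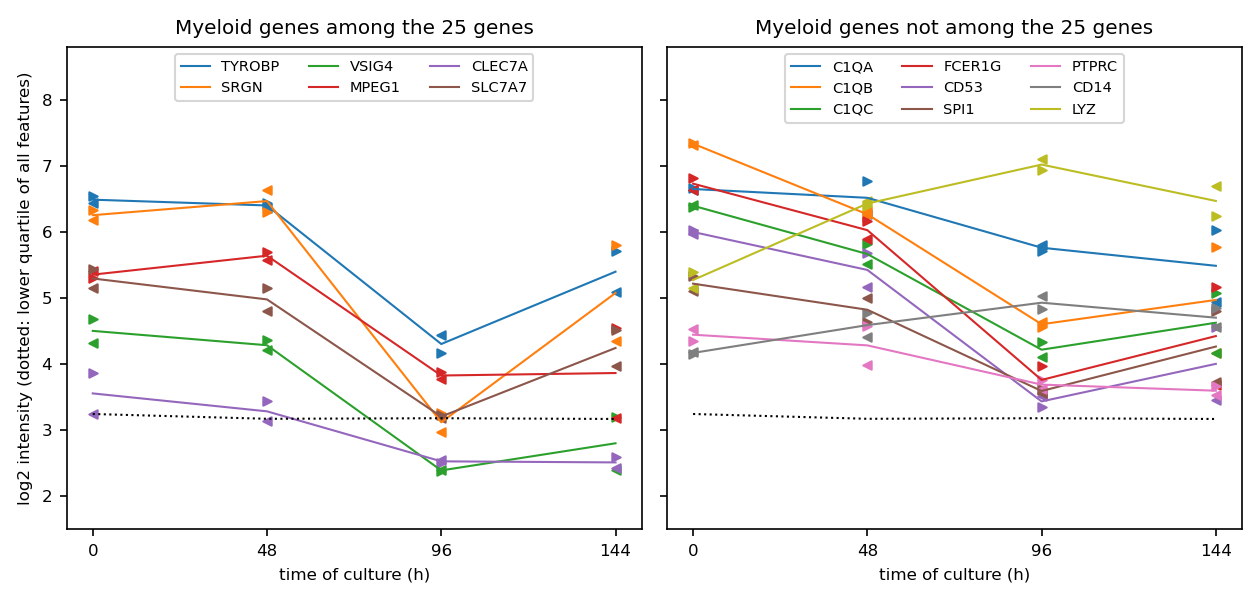
Log2 intensity (vertical axis) against time of culture in hours (horizontal axis) for myeloid genes; lines join the means of 2 arrays, left-pointing and right-pointing triangles are replicates 1 and 2, and the dotted line is the lower quartile of all features. The 6 genes on the left are level to 48 h and lower at 96 h. On the right, genes such as C1QB and FCER1G are lower at 48 h already, C1QA is near its 0 h mean at 48 h, and LYZ and CD14 are not lower at 96 h.

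The second group holds 4 other immune genes. C7 encodes a component of the complement membrane attack complex. It read 6.42 and 6.54 at 0 h, 6.30 and 6.22 at 48 h, 2.95 and 2.86 at 96 h, and 3.23 and 3.97 at 144 h. Both 96 h arrays were below the lower quartile, so its difference from 0 h there is only a lower bound. CD55, whose product speeds the decay of complement convertases on the cell surface, gave 9.18 and 9.28 at 0 h, 8.93 and 9.02 at 48 h, 7.85 and 7.80 at 96 h, and 7.98 and 7.95 at 144 h. Its replicates lay within 0.09 of each other at every time, and the 4 later arrays formed a narrow band. LGALS9 encodes galectin-9, a beta-galactoside-binding lectin that is secreted and acts on immune cells. Its levels were 7.51 and 7.48 at 0 h, 7.04 and 7.18 at 48 h, 4.67 and 4.51 at 96 h, and 5.75 and 6.63 at 144 h, and its 48 h mean lay closest of all members to the 0.4 threshold, at -0.38 from 0 h. CXCL14, a chemokine gene, read 6.91 and 6.92 at 0 h, 6.85 and 6.97 at 48 h, 5.07 and 4.80 at 96 h, and 5.39 and 6.37 at 144 h, with the second 144 h array only 0.48 below the lowest early array.

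A list of 20 further complement genes, also drawn up after the members were seen, had other values. Of 14 measured, 10 had a lower mean at 48 h than at 0 h and 9 at 96 h than at 48 h. The shares of all named genes were 54.4% and 48.3%. The median difference of the 14 genes from 0 h was -0.21 at 96 h and 0.07 at 144 h. Their median 0 h level was 3.40, close to the lower quartile. C9, another component of the membrane attack complex, had means of 3.33 before culture, 6.22 at 48 h, 4.34 at 96 h and 5.32 at 144 h. CD59, which blocks assembly of that complex, had means of 8.42, 7.86, 7.94 and 7.72 in the same order of times.

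A further 5 genes encode receptors and ligands. AMHR2 is the type 2 receptor of anti-Müllerian hormone, through which granulosa cells receive that signal. It read 6.62 and 6.61 at 0 h, 6.43 and 6.33 at 48 h, 5.20 and 5.31 at 96 h, and 5.32 and 5.62 at 144 h. Its means lay at -1.36 from 0 h at 96 h and at -1.14 at 144 h. EFNB2 encodes ephrin-B2, a membrane-bound ligand of EPHB receptors, and read 7.74 and 8.02 at 0 h, 8.11 and 7.99 at 48 h, 6.50 and 6.58 at 96 h, and 5.73 and 6.37 at 144 h. The 144 h arrays were the lowest, below both 96 h arrays.

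F2RL1 encodes the protease-activated receptor PAR2, a receptor that trypsin-like proteases switch on by cleavage. Its levels were 6.75 and 6.92 at 0 h, 7.10 and 7.12 at 48 h, 5.20 and 5.09 at 96 h, and 5.79 and 5.72 at 144 h, with all 4 groups apart from each other. LSR, the lipolysis-stimulated lipoprotein receptor, which also sits at tricellular junctions of epithelia, had 7.22 and 7.53 at 0 h, 6.97 and 7.09 at 48 h, 6.17 and 6.26 at 96 h, and 5.25 and 6.33 at 144 h. Of its 144 h arrays, 1 was far below the 96 h arrays and the other slightly above them. NDNF, a secreted protein gene, read 5.40 and 5.24 at 0 h, 5.47 and 5.04 at 48 h, 3.81 and 4.09 at 96 h, and 4.23 and 3.91 at 144 h, and its 96 h and 144 h arrays overlapped.

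AMHR2 was the only 1 of 14 measured genes of a list of granulosa cell identity that met the rule. By limma's test against 48 h, 8 of the 14 were lower and none higher at 96 h, where 29.4% of all features were called, 16% lower and 13.4% higher. At 144 h 9 were lower and none higher, where 8.64% of all features were called, 4.32% lower and 4.32% higher. AMHR2, whose step the choice fixed, is 1 of the lower genes at both times. The follistatin gene FST, whose product binds activin, was lower at 144 h than at 48 h by -2.87 ± 0.23 (adjusted p = 0.000393) and NR5A2, a nuclear receptor gene of steroidogenic cells, by -2.13 ± 0.27 (adjusted p = 0.00270). Their means were 11.23 for FST and 9.39 for NR5A2 at 0 h, and 9.78 and 7.59 at 48 h, so both had left the 0 h level before. HSD17B1, whose enzyme makes estradiol, was also lower at 144 h than at 48 h (-1.47 ± 0.14). KITLG, the KIT ligand gene, was lower too (-1.49 ± 0.33), but its means of 3.65 before culture, 6.15 at 48 h, 6.68 at 96 h and 4.66 at 144 h left it above the 0 h mean throughout. AMH itself, the ligand gene of AMHR2, had means of 5.53 before culture, 3.17 at 48 h, 2.81 at 96 h and 3.08 at 144 h, and was thus near the lower quartile while AMHR2 still held its level.

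Proteins of 3 genes act in the nucleus. EGR2 encodes a zinc finger factor of the immediate early class. It read 8.06 and 7.98 at 0 h, 7.91 and 7.93 at 48 h, 6.45 and 6.69 at 96 h, and 5.41 and 6.83 at 144 h. ID2, which encodes an inhibitor of basic helix-loop-helix factors and is a known target of BMP signals, gave 10.84 and 10.78 at 0 h, 10.59 and 10.39 at 48 h, 9.60 and 9.82 at 96 h, and 9.21 and 9.93 at 144 h. MXI1 encodes a partner of MAX that opposes MYC, and read 8.62 and 8.68 at 0 h, 8.44 and 8.57 at 48 h, 7.27 and 7.32 at 96 h, and 7.51 and 7.58 at 144 h. MXI1 replicates agreed to within 0.13 at every time, whereas the 144 h replicates of EGR2 and ID2 lay on either side of their 96 h arrays.

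Relatives of these genes had other values. EGR1, the best known gene of the EGR family, had means of 11.52 before culture, 10.13 at 48 h, 9.31 at 96 h and 9.62 at 144 h, with a lower mean at 48 h already. ID1 had means of 6.36, 6.98, 6.37 and 5.51 in the same order. It was lower at 144 h than at 48 h by -1.46 ± 0.17 (adjusted p = 0.00179) and was back near its 0 h level at 96 h. ID2 and AMHR2 were the members among 29 measured genes of a TGF-beta, activin and BMP list. Against 48 h, the test called 6 genes of that list higher and 11 lower at 96 h, and 3 higher and 7 lower at 144 h, with ID2 and AMHR2 among the lower genes by the choice. Over all features the shares were 13.4% higher and 16% lower at 96 h, and 4.32% each at 144 h. GREM1, which encodes a BMP antagonist, differed by 1.94 ± 0.51 at 144 h and was not called there (adjusted p = 0.0567), and INHBA, the activin beta A gene, was lower by -1.04 ± 0.15 (adjusted p = 0.00442).

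The remaining 7 genes serve transport, metabolism or trafficking. AKR1CL1, an aldo-keto reductase gene, read 11.44 and 11.37 at 0 h, 11.19 and 11.07 at 48 h, 9.91 and 10.11 at 96 h, and 9.79 and 10.56 at 144 h. ARRDC3 encodes an alpha-arrestin that sends membrane receptors to degradation, and gave 10.00 and 9.94 at 0 h, 9.96 and 9.85 at 48 h, 8.12 and 8.20 at 96 h, and 8.63 and 8.70 at 144 h. Its replicates were close at every time, and its 96 h arrays were the lowest. MFSD4B, a gene of the major facilitator family of sugar carriers, read 7.37 and 7.37 at 0 h, 7.29 and 7.15 at 48 h, 5.87 and 5.95 at 96 h, and 5.98 and 6.09 at 144 h, with its 4 later arrays in a narrow band.

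NCKAP5, whose protein is little studied, had 6.97 and 6.91 at 0 h, 6.91 and 6.98 at 48 h, 4.07 and 4.11 at 96 h, and 4.32 and 4.06 at 144 h. Its lowest early array stood 2.58 above its highest later array, the widest distance of the 25 genes, and its means lay at -2.85 from 0 h at 96 h and at -2.75 at 144 h. TMEM206, the gene of a proton-activated chloride channel, read 6.88 and 7.06 at 0 h, 6.65 and 6.75 at 48 h, 5.17 and 5.52 at 96 h, and 5.69 and 6.09 at 144 h. APMAP, first described in the plasma membrane of adipocytes, read 8.27 and 8.35 at 0 h, 7.98 and 7.88 at 48 h, 7.06 and 6.97 at 96 h, and 7.15 and 7.34 at 144 h. STXBP2, which encodes a partner of syntaxins in granule release, read 7.58 and 7.65 at 0 h, 7.60 and 7.72 at 48 h, 6.36 and 6.44 at 96 h, and 6.31 and 6.88 at 144 h, and its 144 h arrays spanned both 96 h arrays.

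The 3 other alpha-arrestin genes measured from a list drawn up after the members were seen, TXNIP, ARRDC4 and ARRDC2, were set beside ARRDC3. TXNIP read 10.91 and 11.09 at 0 h, 9.53 and 9.60 at 48 h, 5.97 and 5.85 at 96 h, and 9.19 and 8.45 at 144 h, and ARRDC4 had means of 10.53 before culture, 8.87 at 48 h, 5.99 at 96 h and 8.18 at 144 h. These 2 genes and ARRDC3 had their lowest arrays at 96 h. ARRDC2 ran the other way, with means at 1.15 from 0 h at 96 h and at 1.26 at 144 h. TXNIP was higher at 144 h than at 96 h by 2.91 ± 0.22 (limma's moderated test, adjusted p = 0.000162), where ARRDC3 differed by 0.51. The other 10 functional lists set beside the members held none of the 25 genes: steroid synthesis and cholesterol supply, cyclic AMP signalling, luteinization and ovulation, fatty acid oxidation, glutathione and antioxidant genes, the respiratory chain, insulin-like growth factors, epithelial junctions, fibrillar matrix, and mitosis and DNA replication. The 25 genes are 0.233% of all named genes, so most lists of 8 to 27 measured genes would hold none, and their absence says little about these functions.

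**Figure D4:**
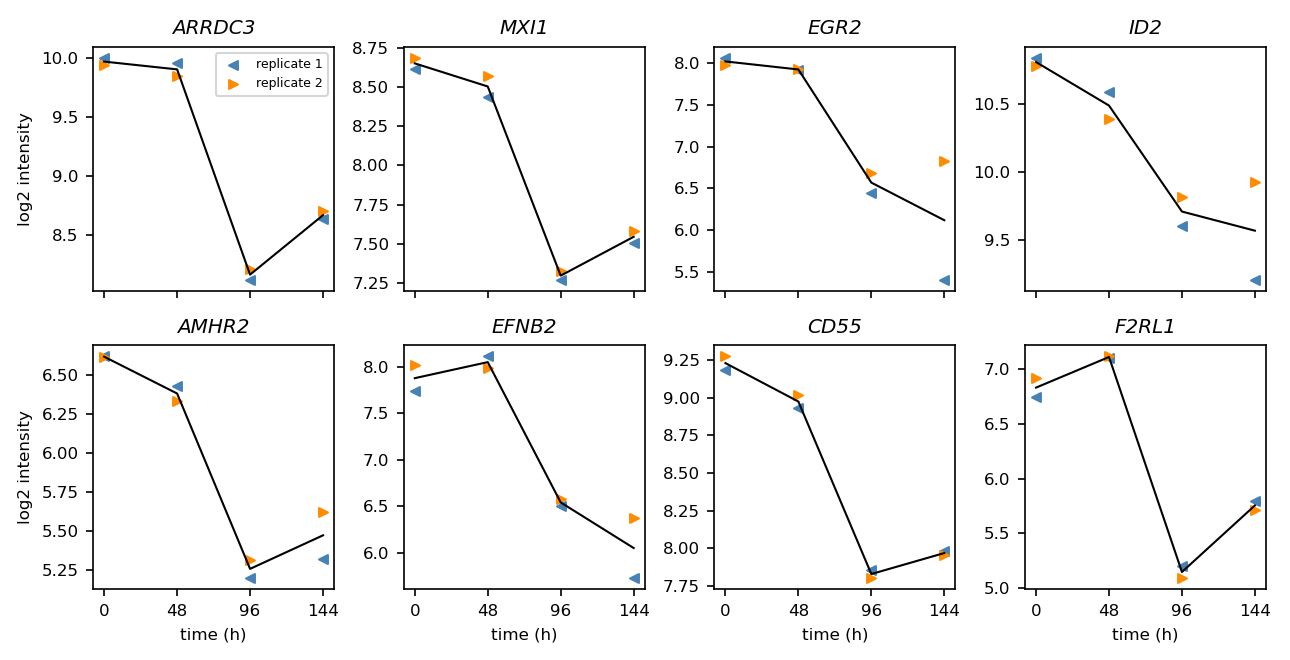
Log2 intensity (vertical axis, scaled separately in each panel and not starting at 0) against time of culture in hours for 8 of the genes. Black lines join the means of 2 arrays and triangles are the arrays, which show the shared step between 48 h and 96 h, close replicates for ARRDC3, MXI1, CD55 and F2RL1, and 144 h replicates far apart for EGR2, ID2 and EFNB2.

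The choice did not set the order of 96 h and 144 h, but it put limits on the same arrays at both times. Genes that were nearer their 0 h level at 144 h were left out, such as SAT1 (-2.29 at 96 h and -0.90 at 144 h from 0 h) and ARRB1 (-1.84 and -0.93). The values for 144 h against 96 h are therefore not independent of the choice, and the counts below describe the 25 genes only. Of the 25 genes, 7 were higher at 144 h than at 96 h at an adjusted p below 0.05 and none was lower, where 22.2% of all features were called, 12.1% higher and 10.1% lower. At an unadjusted p below 0.05 the same limma test gave 9 higher and 1 lower. The share of all features at that threshold is not given here, so these counts cannot be set against it. By the mean, 20 were higher at 144 h and 5 lower, where 49.2% of all features were higher and 50.8% lower. The median was 0.21, against -0.01 for all features. All 7 genes remained below every 0 h and 48 h array at 144 h, as the rule required.

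SRGN had the largest measured difference of the 25, 1.96 ± 0.39 (SE, n = 2 per time, adjusted p = 0.00982), from 96 h levels near the lower quartile. LGALS9 was higher by 1.59 ± 0.25 (adjusted p = 0.00326), a 3.02-fold difference in signal. TYROBP was higher by 1.09 ± 0.20 (adjusted p = 0.00644) and SLC7A7 by 1.04 ± 0.21 (adjusted p = 0.00936). The 96 h levels of SLC7A7 were also near the lower quartile, with 1 array below it. These 4 genes, 3 from the myeloid group and 1 lectin, differed by more than 1 on the log2 scale, and in each of them both 144 h arrays lay above both 96 h arrays.

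Smaller differences were called for CXCL14 (0.95 ± 0.28, adjusted p = 0.0426), F2RL1 (0.61 ± 0.11, adjusted p = 0.00731) and ARRDC3 (0.51 ± 0.11, adjusted p = 0.0129). The call for CXCL14 was lost in 10 of 15 alternative settings, with an adjusted p as high as 0.219 without 96 h replicate 2. C7 differed by 0.70 ± 0.21 (adjusted p = 0.0528) and TMEM206 by 0.55 ± 0.17 (adjusted p = 0.0597), just short of the threshold, and both were called in some of the settings. With 96 h replicate 1 left out, SRGN differed by 1.81, SLC7A7 by 1.02 and ARRDC3 by 0.46. With 96 h replicate 2 left out, TYROBP differed by 0.95, SLC7A7 by 1.06, and F2RL1 and ARRDC3 each by 0.55. The calls of these genes were not kept in every fit with 1 array left out, and such a fit takes no spread from the time with 1 array. LGALS9 differed by 1.67 without 96 h replicate 1 and by 1.51 without 96 h replicate 2.

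The remaining 16 genes differed by -0.49 to 0.41. EFNB2 (-0.49 ± 0.21, adjusted p = 0.135), EGR2 (-0.45 ± 0.38), LSR (-0.42 ± 0.30), ID2 (-0.14 ± 0.22) and CLEC7A (-0.02 ± 0.20) had a lower mean at 144 h than at 96 h, and none of them passed. Among the steadiest were CD55 (0.14 ± 0.11), MFSD4B (0.13 ± 0.11) and NCKAP5 (0.11 ± 0.12), whose standard errors were between 0.11 and 0.12. A difference that missed the threshold does not show that the levels of these genes were equal at the later times.

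Over all features, 12.1% were called higher at 144 h than at 96 h. Groups of 3 to 7 genes are too small to set against that share. By role, 3 of the 6 myeloid genes were called higher, 2 of the 4 other immune genes and 1 of the 5 receptor and ligand genes. None of the 3 nuclear regulators was called higher, and 1 of the 7 transport and enzyme genes was. The median differences were 0.72, 0.82, 0.12, -0.14 and 0.19 in that order. Only nuclear regulators had a median below 0. These groups were formed after the members were known, and differences between them were not tested.

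**Figure D5:**
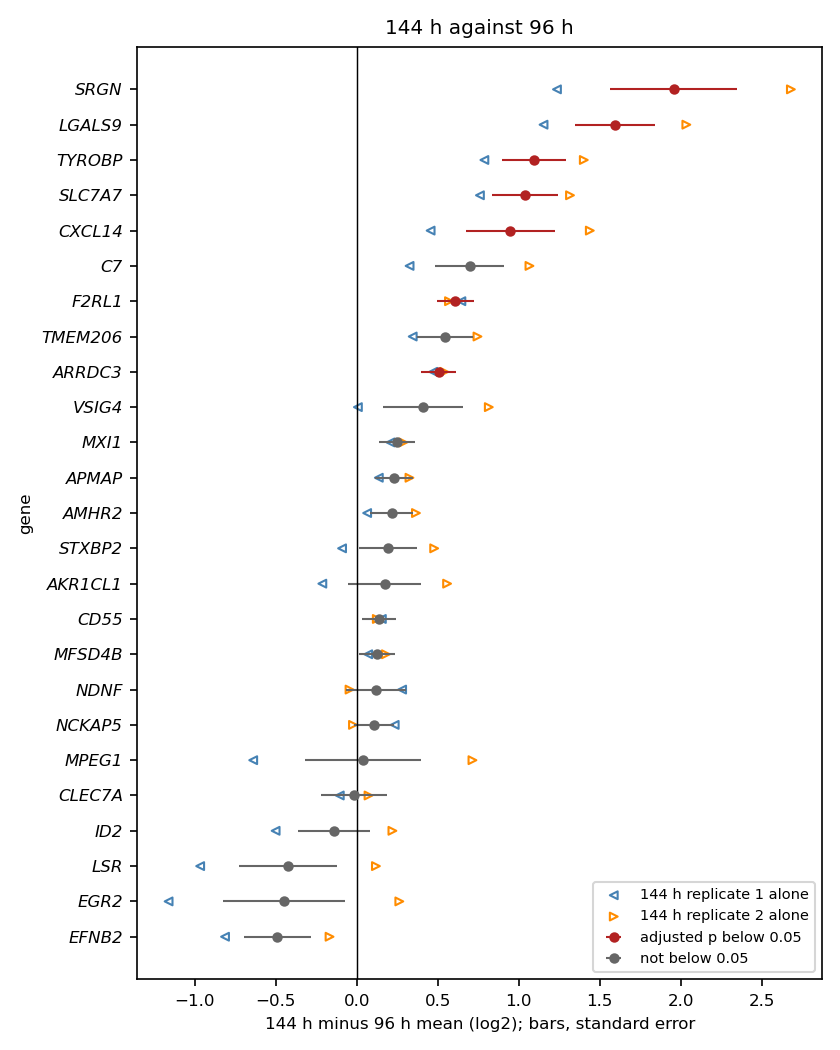
Difference between the 144 h and 96 h means of each of the 25 genes (horizontal axis, log2), with bars of 1 standard error from the model over all 8 arrays; red points had an adjusted p below 0.05. Open triangles give each 144 h array alone minus the 96 h mean, and for 9 genes, among them EGR2, LSR, ID2 and MPEG1, they lie on either side of 0.

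The 2 arrays at 144 h differed over these genes mostly in 1 direction. Replicate 2 was above replicate 1 for 21 of 25 genes, against 52.4% of all features. The median of replicate 2 minus replicate 1 was 0.57 over the 25 genes and 0.02 over all features. All 6 myeloid genes had the higher level in replicate 2, and so did 15 of the 17 other measured myeloid genes. The exceptions among the 25 were NCKAP5, F2RL1, CD55 and NDNF. At 0 h, 48 h and 96 h the median absolute difference between replicates was 0.09, 0.12 and 0.09 for the 25 genes, close to the 0.13, 0.14 and 0.09 for all features.

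This spread bears on each value at 144 h. With replicate 1 left out, the difference from 96 h was 0.26 for EGR2, -0.17 for EFNB2, 0.12 for LSR, 0.22 for ID2 and 0.71 for MPEG1. With replicate 2 left out, it was -1.16, -0.81, -0.97, -0.50 and -0.64 in that order. The rule itself found 16 genes without replicate 1, 12 of them among the 25, and 34 without replicate 2, with all 25 among them. SRGN, LGALS9, TYROBP, SLC7A7, F2RL1 and ARRDC3 stayed higher than at 96 h with either 144 h array left out. Their differences ran from 0.54 to 2.68 without 144 h replicate 1 and from 0.47 to 1.24 without 144 h replicate 2. Such a fit takes no spread from 144 h, so its p-values cannot test these differences against the spread between the 144 h arrays. A cause of the difference between the 2 arrays was not tested.

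The thresholds of the choice divide a continuous range. Just inside the 48 h limit were LGALS9 (-0.38), APMAP (-0.38), LSR (-0.35), ID2 (-0.32) and SLC7A7 (-0.32), and just outside were DACH1 (-0.42), NEMP2 (-0.43), ENPP2 (-0.43), MMP16 (-0.44) and GALP (-0.45), all as 48 h minus 0 h. MMP16, a membrane metalloproteinase gene, had later differences of -2.28 at 96 h and -2.03 at 144 h and DACH1, a transcription cofactor gene, -1.50 and -1.75, beside the median of -1.40 of the 25 genes. By the smaller of the later differences, just inside were STXBP2 (-1.02), CLEC7A (-1.03), CXCL14 (-1.03), SLC7A7 (-1.05) and APMAP (-1.06). Just outside were ZNF713 (-0.99), ACP5 (-0.95), ARRB1 (-0.93), ASB3 (-0.93) and SAT1 (-0.90). SAT1, the polyamine acetyltransferase gene, lay at -2.29 at 96 h and missed only at 144 h, and ACP5 encodes the tartrate-resistant phosphatase of osteoclasts and macrophages.

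Across the 8 arrays, the correlation between pairs of the 25 genes ran from 0.70 to 0.99 with a median of 0.93 over 300 pairs, which the shared step of the rule largely sets. Markers of other cell types moved in their own ways. Fibroblast markers (5 of 6 measured) had a log2 summed intensity of 7.40 and 7.57 at 0 h, 11.43 and 11.40 at 48 h, 12.38 and 12.40 at 96 h, and 13.35 and 13.08 at 144 h. Smooth muscle markers (5 of 7) lay between 9.05 and 9.16 at 0 h and between 12.07 and 13.01 later. Endothelial markers (5 of 6) stayed between 6.13 and 6.62 over all arrays. Oocyte markers (5 of 8) lay at 8.36 and 8.12 at 0 h and between 6.35 and 6.64 later. Theca (3 of 5), ovarian surface (2 of 5) and erythroid (2 of 4) markers were too few to describe those cells. The part of these cells in the levels of the 25 genes was not tested.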

How the data were processed

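The authors deposited log2 intensities of 27558 features on 8 Affymetrix whole-transcript arrays, and the submitters' processing notes name RMA (robust multi-array averaging) as their source. Its software and settings were not given in the sources used here. RMA brings all arrays to 1 common distribution of values, which would hide a shift of most transcripts. Groups and replicate numbers came from the labels, and no further normalization or filter was applied.

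The platform annotation held by GEO may be out of date. It gave 1 symbol to 11735 features, of which 6 symbols were updated by gene identifier, several to 612 and none to 15211. Each of 10707 genes was represented by its feature with the highest mean. The rule was applied to 2-array means and single arrays.

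All features were fitted at once, each time having its own mean, by lmFit and eBayes of limma 3.58.1 under R 4.3.3. The residual degrees of freedom were 4 and the prior ones 3.98. Tests were two-sided, with p-values adjusted by Benjamini-Hochberg over all 27558 features and a call below 0.05. The code was tested on simulated data.

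The members, gene lists and tests were chosen with earlier results of these data known. The lists named as drawn up after the genes were seen, and the role groups, came later still. Every member is named. Other genes are named as those of a list with the largest change at 144 h against 48 h, as nearest to a threshold, or after their values were seen (PTPRC, AIF1, CD14, TXNIP, AMH, EGR1 and the genes of the later lists). Alternatives were other normalizations, a filter on dim features, other variance estimates, a replicate block, other thresholds, and leaving out each array. A rule without the 96 h arrays was added after seeing the data. With 2 arrays per time, the number of arrays limits the precision, and since no array batch is named in the labels used here, batch and time cannot be told apart.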

Additional observations from a re-analysis of the deposited data

How the results depend on the processing

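The number of genes meeting the rule was 25. It was 20 with a 48 h limit of 0.3 and 38 with 0.5, 47 with a later limit of 0.8 and 12 with 1.2, and 36 by a rule without the 96 h arrays, a setting chosen after seeing the data. Median centring, quantile normalization and cyclic loess gave 26, 23 and 22 genes, and 14 of the 25 were found by all 3. Leaving out 1 array gave 16 to 34 genes, and 9 of the 25 were found in all 8 such runs (ARRDC3, CD55, MXI1, EGR2, EFNB2, MFSD4B, NCKAP5, C7 and NDNF).

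Of the 25 genes, 7 were called higher at 144 h than at 96 h. The count was 7 under each of the 3 normalizations and with trend and robust, 9 without dim features, 6 in a fit to the 4 arrays compared, and 5 at an adjusted p below 0.01. With 1 array left out it ran from 2 to 13, and the count of lower genes from 0 to 5. A time with 1 array left was assumed to vary like the others. The replicates at 144 h differed more than those of the other times (SD of 0.382 against 0.162 to 0.265). Such counts therefore do not measure stability. Over all features, the calls at 144 h against 96 h ran from 2437 to 7320 (6115 with all arrays), those at 96 h against 48 h from 4198 to 10294 (8089), and those at 144 h against 48 h from 1070 to 3879 (2381). The last was 825 in a fit to the 4 arrays compared.

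Small differences between 144 h and 96 h changed sign with 1 array left out. They ran from -0.023 to 0.23 for NCKAP5, -1.16 to 0.26 for EGR2, -0.64 to 0.71 for MPEG1, -0.97 to 0.12 for LSR, -0.21 to 0.56 for AKR1CL1, -0.045 to 0.28 for NDNF, -0.50 to 0.22 for ID2, -0.091 to 0.48 for STXBP2 and -0.10 to 0.073 for CLEC7A, which was 0.0153 after cyclic loess. The cause was not tested.

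Same-numbered arrays did not deviate together in every pair (correlations of -0.04 to 0.19), so the numbers were not taken as pairs. With the replicate number as a block, 8 of the 25 genes were called higher and 6142 features in all at 144 h against 96 h.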

Other observations

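The rule was also met by 30 features with no gene symbol in the annotation used, 2 of which held the same values, with levels between 2.25 and 9.69. A dimmer feature of ATAD2B met it too, at 7.43 and 7.30 at 0 h, 7.06 and 6.97 at 48 h, 5.95 and 6.08 at 96 h, and 6.42 and 6.04 at 144 h, while the feature that stood for this gene did not. None of the 239 features whose annotation repeats 1 symbol met the rule.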
